A study of Mus musculus with 7 samples.

Results

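The elastic fibre and microfibril genes described here are 10 of the 55487 genes measured in mouse thoracic aorta: Eln, Fbn1, Fbn2, Fbln1, Fbln2, Fbln5, Efemp2, Emilin1, Mfap4 and Mfap5. They were chosen by name, for the part their proteins play in the fibre, with earlier results of these data known. Each symbol was matched to a single gene identifier. Messenger RNA was sequenced from 7-week-old males of strain C57BL/6 (C57BL/6J in the published description), which were either wild-type (Col3a1+/+, n = 4) or heterozygous for a knock-in glycine substitution in the triple helix of type III collagen (Col3a1+/G182R, n = 3). There was 1 library per mouse, made from aorta, which the published description gives as thoracic and once as descending thoracic. No separation of layers is described, so intima, media and adventitia were read together, and in such tissue fewer cells of a type and less RNA per cell cannot be told apart. Neither genotype was treated, and all mice of the mutant group carry the same engineered allele.

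An elastic fibre is a core of cross-linked elastin laid on a scaffold of fibrillin microfibrils. Smooth muscle cells of the arterial media make most of it around birth, in concentric lamellae that give the wall its recoil, and adventitial fibroblasts make part of it. Fibulins carry tropoelastin and lysyl oxidases to the scaffold, emilin sits where elastin meets microfibril, and the microfibril-associated proteins bind along the fibrillin.

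Total counts were 13693861 to 21634680 in the Col3a1+/+ libraries and 18820015 to 23953746 in the Col3a1+/G182R libraries. Of the 15688 genes that passed the filter on low counts, edgeR called 6 at an adjusted p under 0.05, or 0.0382%, and DESeq2 called 706, or 4.5%. Col3a1+/+ replicate 4 stood farthest from the other libraries on the first principal component, at 65.6 where the others lay between -35.2 and 31.2, and that axis held 43.3% of the variance. Levels are given between genes as TPM, counts scaled by transcript length and library total. Between mice they are given mainly as CPM, counts scaled by TMM library size and not by length. Sums of cell type markers are given in TPM, also between mice, and so carry the transcript lengths used. Smooth muscle markers were abundant in every library, with Acta2 at a mean of 11909 TPM in Col3a1+/+ and 13586 TPM in Col3a1+/G182R. Col3a1, the targeted gene, was at 2831 to 5483 CPM in Col3a1+/+ and 4107 to 5208 in Col3a1+/G182R, and its total level does not check the genotype because transcripts of both alleles are counted in it.

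No member passed the threshold for a difference between genotypes. Of the 9 members that passed the filter, edgeR called 0 and DESeq2 called 0 at an adjusted p under 0.05. At an unadjusted p under 0.05 edgeR marked 1 of 9, Mfap4, where it marked 20.4% of all genes tested. In CPM the 2 genotypes did not overlap in 1 of 9 members, again Mfap4, against 20.9% of all genes tested. The members had a median log2 fold change of 0.03, with 5 measured higher and 4 lower in Col3a1+/G182R, beside a median of 0.01 over all genes tested. The 95% interval given with each gene is the range of change that these 7 mice do not tell apart from the measured one.

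**Figure D1:**
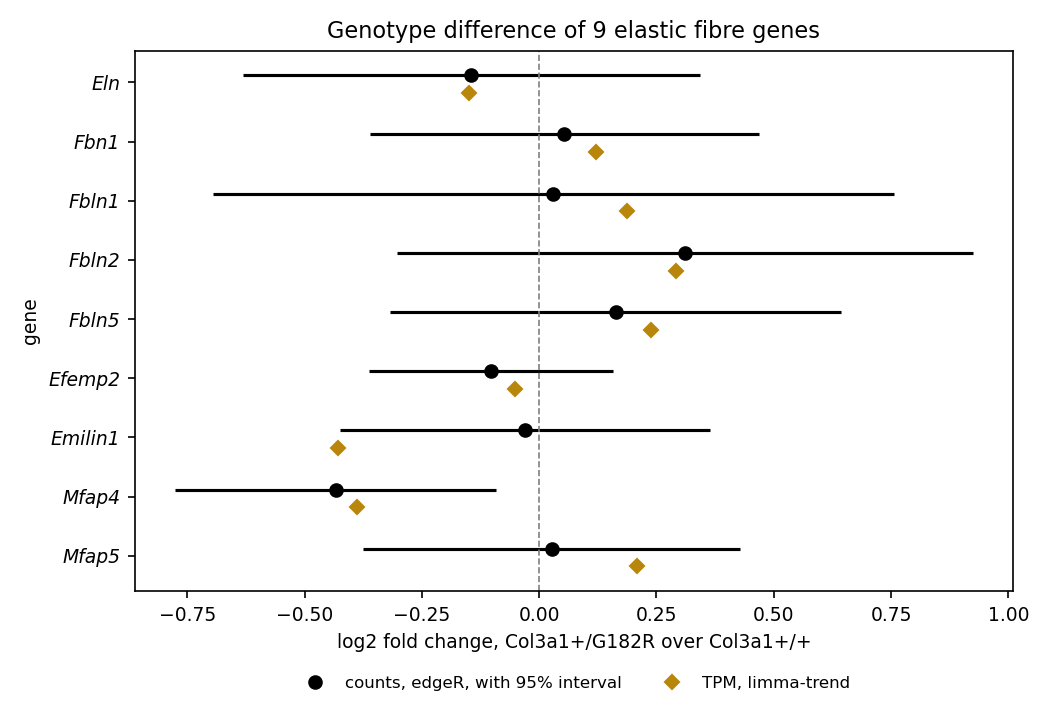
The horizontal axis gives the log2 fold change of Col3a1+/G182R (n = 3) over Col3a1+/+ (n = 4) for 9 members on the vertical axis, as a black point with its 95% interval from counts (edgeR) and as a gold diamond from TPM (limma-trend on log2(TPM + 0.5)). The interval of Mfap4 lies below 0, those of the other 8 include 0, and both scales part most at Emilin1 (-0.03 from counts, -0.43 from TPM).

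Eln, the gene of tropoelastin, stood first among the members with a mean of 6678 TPM in Col3a1+/+, rank 19 among all genes. It was followed by Mfap4 (1244 TPM), Mfap5 (715 TPM), Fbln5 (371 TPM), Emilin1 (151 TPM), Efemp2 (119 TPM), Fbn1 (79.6 TPM), Fbln2 (44.6 TPM) and Fbln1 (25.2 TPM). Each stood above the next in 7 of 7 libraries, except Emilin1, which was above Efemp2 in 5 of 7. Over all 7 libraries the ranges of Mfap4 and Mfap5, of Emilin1 and Efemp2, of Fbn1 and Fbln2, and of Fbln2 and Fbln1 overlapped. Levels of these neighbours thus overlap between different mice, while within a library only the order of Emilin1 and Efemp2 changed.

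**Figure D2:**
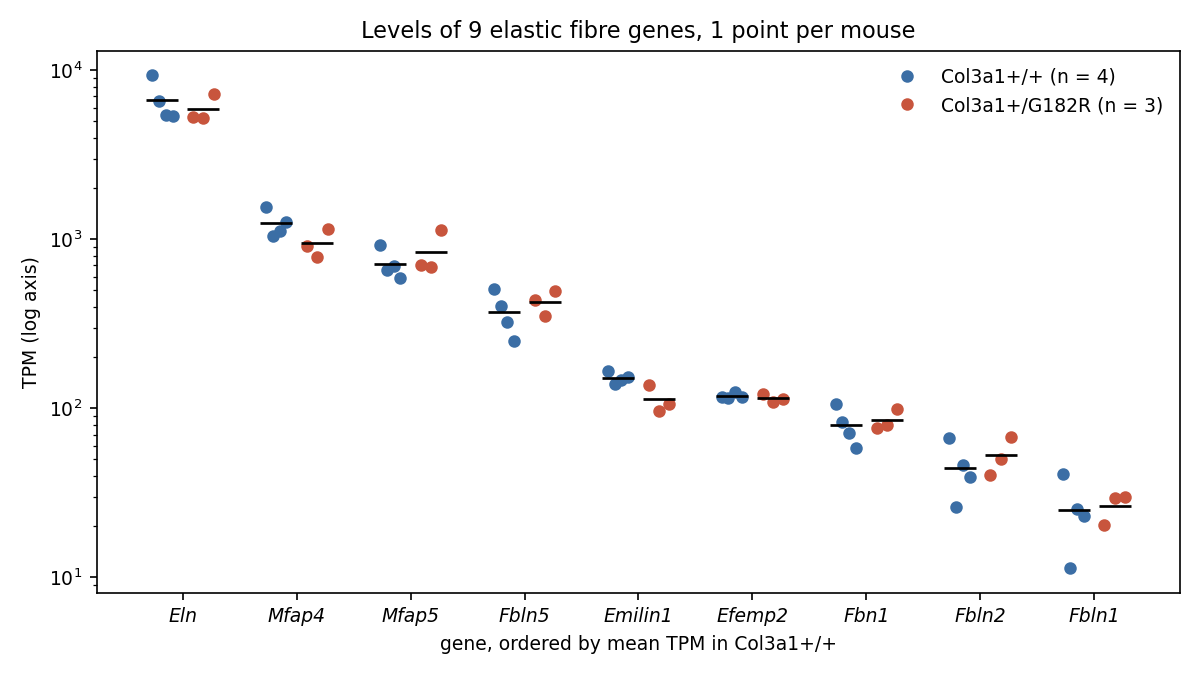
Each point is 1 mouse, with TPM on a logarithmic vertical axis and 9 members on the horizontal axis in the order of their Col3a1+/+ mean, Col3a1+/+ in blue (n = 4) and Col3a1+/G182R in red (n = 3), with black bars for group means. Eln lies at 5230 to 9323 TPM, Fbn2 is left out because it had 0 to 8 counts, and Efemp2 has the tightest points.

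Eln alone made up 68.2 to 72.9% of the summed TPM of the 10 members. The members together took 1.49 to 2.38% of all counts of a library, of which Eln took 1.16 to 1.95%. These ranges come from Col3a1+/+ at their upper end (replicate 1) and hold Col3a1+/G182R, at 1.52 to 1.9% for the members, inside them.

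Upstream sequences from the RefSeq table of build GRCm38.p6 were used for 6 of the 10 members, a choice described with the processing. In 4 of their 10 windows, the 150 bases before a start site lay clear of every exon in GENCODE M21. Printed here are Fbln5 and Efemp2, which among the members with a clear window had the highest and the lowest likeness to Eln from library to library (given further on). Each is written 5′ to 3′ on the strand of the gene and ends at the base before the start. Capitals mark the GC box, GGGCGG on either strand (CCGCCC when read on the other), which transcription factors of the Sp family are known to bind. The Fbln5 window is at chr12:101819120-101819269 on the minus strand, and that of Efemp2 at chr19:5473796-5473945 on the plus strand.

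Fbln5: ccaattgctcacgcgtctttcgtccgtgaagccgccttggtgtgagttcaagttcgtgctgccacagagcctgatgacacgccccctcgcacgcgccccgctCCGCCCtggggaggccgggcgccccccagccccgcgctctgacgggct

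Efemp2: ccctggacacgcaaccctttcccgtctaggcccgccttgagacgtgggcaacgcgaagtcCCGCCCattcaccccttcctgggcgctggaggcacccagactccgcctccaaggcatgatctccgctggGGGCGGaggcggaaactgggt

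The Fbln5 window holds 1 GC box at 70% G and C. A second, downstream start of Fbln5 has a window with 0 GC boxes at 47.3% G and C. The Efemp2 window holds 2 GC boxes at 67.3% G and C. Over the 10 windows of these 6 members, 6 held a GC box and 0 held TATAAA on either strand. Among the 32851 windows of this length for all genes the share was 28.6% for the first and 7.57% for the second. Some member windows belong to the same gene, and those of Efemp2 at 5474540-5474689 and 5474585-5474734 share bases. The count over windows is therefore not a count of genes, and no excess over all genes is drawn from it. These matches describe letters only, and no binding was measured.

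Eln lies on the minus strand of chromosome 5, from 134702593 to 134747323 (GRCm38), and its coding transcript has 37 exons. It was at 19508, 15925, 12207 and 10722 CPM in Col3a1+/+ replicates 1 to 4. In Col3a1+/G182R it was at 12122, 12452 and 15007 CPM. All 3 mutant libraries fell inside the wild-type range, and the SD within Col3a1+/+ was larger than the difference between the group means (14590 ± 3942 CPM, SD, n = 4, against 13193 ± 1579, n = 3). The log2 fold change was -0.15 (SE 0.22, 95% interval -0.63 to 0.34, edgeR adjusted p = 0.721), which covers a change from 0.645-fold to 1.27-fold. Without Col3a1+/+ replicate 1, the library with the highest Eln, its sign turned, at 0.03 on the log2 scale.

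Fbn1 encodes fibrillin-1, the backbone of the microfibril, and lies on the minus strand of chromosome 2, from 125300594 to 125507993. Its values of 702, 600, 530 and 399 CPM in Col3a1+/+ ranked the 4 libraries in the same order as those of Eln. Col3a1+/G182R gave 532, 569 and 637 CPM, all inside that range, and the log2 fold change was 0.05 (SE 0.19, interval -0.36 to 0.47, edgeR adjusted p = 0.885). Without Col3a1+/+ replicate 4, its lowest library, the log2 fold change was -0.09.

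Fbn2, the fibrillin of developing tissues, lies on the minus strand of chromosome 18, from 58008623 to 58210487, and was at the limit of detection. It had 3, 0, 3 and 1 counts in Col3a1+/+ and 4, 8 and 2 in Col3a1+/G182R, where Fbn1 had 5894 to 15164. The count of 0 was in a library of 17639094 counts, which allows a level of up to 0.17 CPM when 3 counts are taken as the floor (counting error only). No fold is given at these counts. When the filter was dropped edgeR gave an adjusted p of 0.615.

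Fbln5 encodes fibulin-5, which ties tropoelastin to microfibrils and to integrins, and lies on the minus strand of chromosome 12, from 101746565 to 101819055. It was at 784, 689, 561 and 400.3 CPM in Col3a1+/+, the order of Eln once more, and at 715, 586 and 743 CPM in Col3a1+/G182R. All 3 mutant libraries fell inside the wild-type range. Its log2 fold change was 0.16 (SE 0.22, interval -0.32 to 0.64, edgeR adjusted p = 0.678), and it was 0.00 without Col3a1+/+ replicate 4.

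Efemp2 encodes fibulin-4, which brings lysyl oxidase to the forming fibre, and lies on the plus strand of chromosome 19, from 5473954 to 5482517. It was the steadiest member, at 102, 111, 119 and 105 CPM in Col3a1+/+ and 109, 103 and 92.9 CPM in Col3a1+/G182R. Its coefficient of variation was 6.5% in Col3a1+/+, against 27% for Eln and 44.7% for Fbln1. The mutant range reached lower than the wild-type range and overlapped it, with a log2 fold change of -0.10 (SE 0.12, interval -0.36 to 0.16, edgeR adjusted p = 0.622). This was the narrowest interval among the 9 members tested, from 0.777-fold to 1.12-fold. The direction was the same in all 16 alternatives.

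Fbln1 and Fbln2 encode fibulins found in basement membranes and around elastic fibres, on chromosome 15 (85205949 to 85286535) and chromosome 6 (91212455 to 91272540), both on the plus strand. Fbln1 was at 79.5, 24.3, 54.8 and 46 CPM in Col3a1+/+ and 40.2, 60.3 and 56.3 CPM in Col3a1+/G182R. Fbln2 was at 89.5, 37.3, 64.9 and 50.4 CPM in Col3a1+/+ and 56.4, 76.6 and 92.3 CPM in Col3a1+/G182R. Both had their lowest value in Col3a1+/+ replicate 2, and both overlapped between genotypes apart from the top library of Fbln2, a mutant. The log2 fold changes were 0.03 (SE 0.33, interval -0.70 to 0.76, edgeR adjusted p = 0.963) for Fbln1 and 0.31 (SE 0.28, interval -0.30 to 0.93, edgeR adjusted p = 0.526) for Fbln2. Fbln1 changed sign without Col3a1+/+ replicate 2, to -0.20, while Fbln2 was higher in Col3a1+/G182R in all 16 alternatives.

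Markers of adventitial fibroblasts are given beside these genes. Their 10 markers summed to 1503, 614, 913 and 1020 TPM in Col3a1+/+ and to 1160, 1368 and 1699 TPM in Col3a1+/G182R, so that the library with the lowest Fbln1 and Fbln2 was also the one with the lowest sum. All 10 markers were measured higher in Col3a1+/G182R, with a median log2 fold change of 0.43 and 4 at an unadjusted p under 0.05, and none was at 0. EdgeR called 0 of them and DESeq2 called Lum (log2 fold change 1.20, adjusted p = 0.0434). The match in Col3a1+/+ replicate 2 is not particular to fibroblast markers. This library also had the lowest sums of endothelial (212 TPM), macrophage (66.2 TPM), adipocyte (2268 TPM) and red blood cell markers (410 TPM). It did not have the lowest sum of smooth muscle markers. Nor did the fibroblast sum follow these genes throughout. From Col3a1+/+ replicate 3 to replicate 4 the sum rose while Fbln1 and Fbln2 fell. The part of fibroblast content in the values of Fbln1 and Fbln2 was not tested.

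Mfap4 encodes microfibril-associated protein 4, a fibrinogen-domain protein that binds fibrillin-1 and tropoelastin, and lies on the plus strand of chromosome 11, from 61485431 to 61488900. It was at 1662, 1243, 1353 and 1429 CPM in Col3a1+/+ and at 1029, 917 and 1210.0 CPM in Col3a1+/G182R. All 3 mutant libraries lay below all 4 wild-type libraries, by a margin that was small between the closest ones. The log2 fold change was -0.43 (SE 0.15, interval -0.78 to -0.09), or 0.74-fold, which ranked 1569 of 15688 genes by p. It did not pass the threshold, with an unadjusted p of 0.0181 and an edgeR adjusted p of 0.181, and DESeq2 gave an adjusted p of 0.0692. Mfap4 was lower in Col3a1+/G182R in all 16 alternatives, between -0.56 and -0.34 on the log2 scale, with adjusted p of 0.0638 to 0.465. In TPM the genotypes overlapped, at 1051 to 1545 in the Col3a1+/+ libraries and 791 to 1157 in the Col3a1+/G182R libraries.

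The 10 smooth muscle markers summed to 18008 to 29322 TPM in the Col3a1+/+ libraries and to 24537 to 26246 TPM in the Col3a1+/G182R libraries, which lay inside the wild-type range. Of the 10, 3 were measured higher and 7 lower, with a median log2 fold change of -0.04, and edgeR called 0. Des, the intermediate filament desmin, had a log2 fold change of -0.40 (unadjusted p = 0.0421, edgeR adjusted p = 0.23), and Myocd, a coactivator of contractile genes, had one of 1.48 (edgeR adjusted p = 0.119) and was called by DESeq2 (adjusted p = 0.00049). Lower in every mutant library than in any wild-type library were the summed cartilage markers, at 33.5 to 36.6 against 22.2 to 29.8 TPM (Matn1 at 0 in every library), the striated muscle markers, at 41.6 to 130.0 against 25.2 to 31.9 TPM (Myh4 at 0), and the markers of neurons and Schwann cells, at 97.7 to 139.5 against 85.9 to 90.8 TPM. Of these, 4 of 4 tested cartilage markers, 7 of 7 tested muscle markers and 3 of 7 tested markers of neurons and Schwann cells were measured lower. In Col3a1+/+ the cartilage sum was mostly Comp and Acan (means of 23.3 and 7.975 TPM). Col2a1 (0.09), Col9a1 (0.1075) and Chad (0.315) were near 0, so this sum does not show that cartilage was present. The neural sum was mostly Ncam1 (96.95 TPM). The muscle sum was highest in Col3a1+/+ replicates 1 and 2, at 130 and 79.3 TPM, where Myh6 was at 12.97 and 11.43 CPM. In Col3a1+/+ replicates 3 and 4 Myh6 was at 1.269 and 1.692 CPM, so the muscle sum was uneven among the wild-type mice. EdgeR called 0 in each list, and DESeq2 called 2 of the muscle markers and 1 of the neural ones (Ncam1). The part of tissue makeup in the value of Mfap4 was not tested.

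Mfap5 encodes microfibril-associated glycoprotein 2, which binds fibrillins, and lies on the plus strand of chromosome 6, from 122505845 to 122529290. It was at 747, 648, 689 and 533 CPM in Col3a1+/+ and 582, 570 and 848 CPM in Col3a1+/G182R. The mutant libraries spanned almost the whole wild-type range and went beyond it in replicate 3, and the log2 fold change was 0.03 (SE 0.18, interval -0.38 to 0.43, edgeR adjusted p = 0.94). The ratio of Mfap4 to Mfap5 in CPM was 1.92 to 2.68 in the Col3a1+/+ libraries and 1.43 to 1.77 in the Col3a1+/G182R libraries. The ratio was chosen after the values were seen and is a description.

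Likewise chosen after the values were seen, the CPM ratio of Eln to Fbln5 was 21.8 to 26.8 in the Col3a1+/+ libraries and 16.9 to 21.3 in the Col3a1+/G182R libraries. That of Eln to Fbn1 was 23 to 27.8 and 21.9 to 23.5, which overlapped. The CPM ratios of Fbln1 to Fbln2, Eln to Mfap4 and Emilin1 to Efemp2 were also taken, and each overlapped between genotypes. No share over other pairs of genes was computed. In TPM the Eln to Fbn1 ratio did not overlap, at 76.4 to 92.2 and 65.6 to 72.8, so that this separation depends on the transcript lengths used.

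Emilin1 encodes the elastin microfibril interfacer 1, an inhibitor of TGF-β precursor processing that is found at the elastin surface, and lies on the plus strand of chromosome 5, from 30913402 to 30921277. In counts the genotypes overlapped, at 195, 187, 146 and 142 CPM in Col3a1+/+ and 201, 156 and 135 CPM in Col3a1+/G182R, with a log2 fold change of -0.03 (SE 0.18, interval -0.43 to 0.36, edgeR adjusted p = 0.931). In TPM it was at 166, 139, 147 and 153 in Col3a1+/+ and at 137, 96.6 and 106 in Col3a1+/G182R, so that every mutant library lay below every wild-type library. It was the only one of 9 tested members whose TPM did not overlap, where 18.9% of all genes tested did not. On the TPM scale its log2 fold change was -0.43, with an unadjusted p of 0.0136 and an adjusted p of 0.196 (limma-trend).

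The 2 scales differ by a length and by the library scaling, which for CPM uses TMM library sizes and for TPM the library total. RSEM gives each gene the mean length of its transcripts, weighted by their estimated abundance, and TPM divides the count by it. For Mfap4, whose genotypes overlapped in TPM and not in CPM, the weighted length was 1702 to 1712 bases over all libraries. For Emilin1 this weighted length was 1854, 1913, 1420 and 1428 bases in Col3a1+/+ and 2170, 2324 and 2050 bases in Col3a1+/G182R. It was longer in every mutant library, and with the lengths as an offset in edgeR the log2 fold change in counts was -0.45 (adjusted p = 0.168). The weighted lengths of the genotypes did not overlap in 2 of 9 members tested, against 13.3% of all genes tested. The other was Mfap5, at 1312, 1432, 1423 and 1400 bases in Col3a1+/+ and 1283, 1262 and 1263 bases in Col3a1+/G182R.

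**Figure D3:**
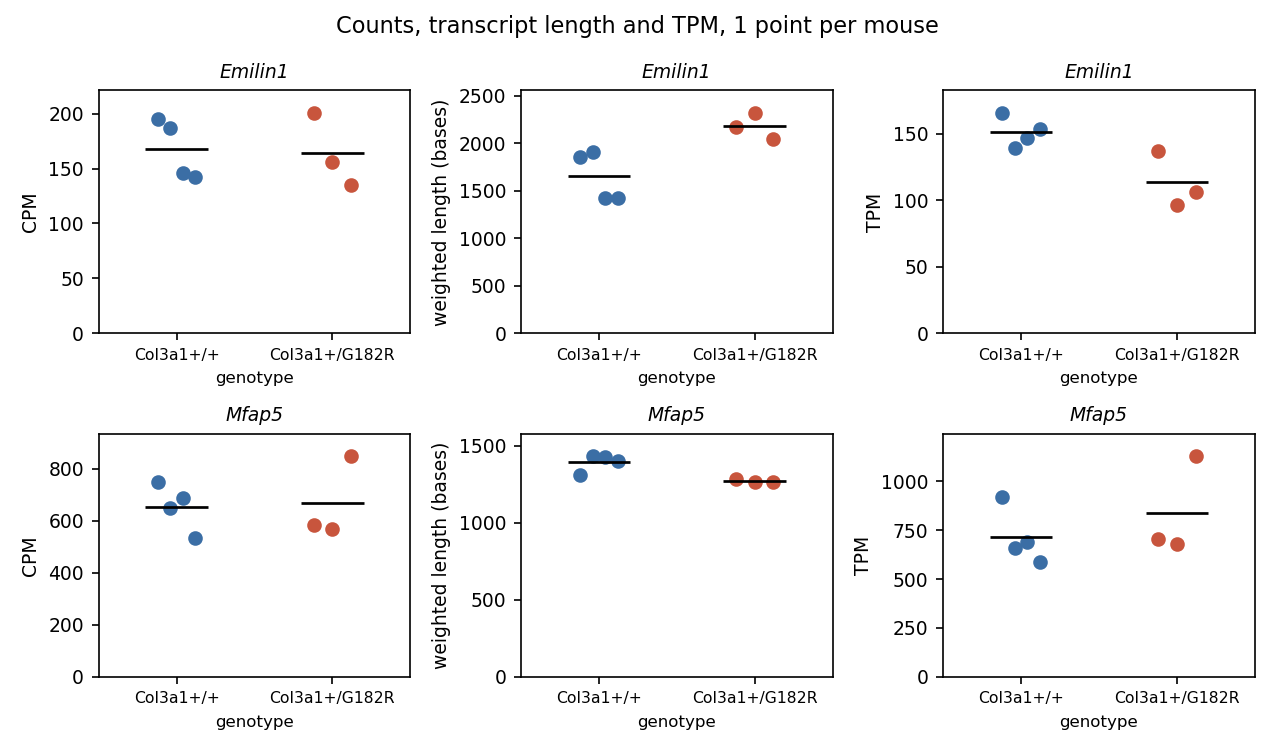
Panels give CPM, weighted transcript length in bases and TPM for Emilin1 (top) and Mfap5 (bottom), each point being 1 mouse (Col3a1+/+ in blue, n = 4, Col3a1+/G182R in red, n = 3) and each bar a group mean, with every vertical axis from 0. Emilin1 overlaps in CPM, is longer in the 3 mutant libraries (2050 to 2324 bases) and is lower in TPM, while Mfap5 is shorter in them.

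GENCODE M21 lists 3 transcripts of Emilin1. The coding transcript has 8 exons and 3852 bases, a retained-intron transcript has 3841 bases, and a second retained-intron transcript has 601 bases. This short one runs from 30919921 to 30921049, over the last exons of the gene. From these lengths, the weighted length puts 59.6 to 74.8% of the Emilin1 TPM on the short transcript in the Col3a1+/+ libraries and 46.9 to 55.3% in the Col3a1+/G182R libraries. That is 82.9 to 114 TPM against 45.3 to 70.9 TPM for the short transcript, and 37.1 to 64 against 47.4 to 66.3 TPM for both long ones. By this estimate the genotypes did not overlap for the short transcript and overlapped for the long ones. This split was made after the values were seen, and it rests on how RSEM divides reads that several transcripts share. The difference between a gene's length and its effective length, which follows the fragment length, was 114 to 120.0 bases in the Col3a1+/+ libraries and 121 to 131 bases in the Col3a1+/G182R libraries, and its part in the split was not tested.

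Several members varied together from mouse to mouse. After the mean of each genotype was subtracted, the log2 CPM of Eln correlated over the 7 libraries with Fbn1 (Pearson r = 0.954), Fbln5 (0.905) and Mfap5 (0.716). It was less alike in Mfap4 (0.477), Emilin1 (0.447), Fbln2 (0.44) and Fbln1 (0.217), and ran the other way in Efemp2 (-0.503). The median r with Eln over 9389 genes was 0.151, and Fbn1 ranked 58 and Fbln5 ranked 280 among them. Fbln1 and Fbln2 formed another pair (r = 0.945), with r of 0.041 and 0.264 to Fbln5. Within each genotype, Eln and Fbn1 fell as the score on the first principal component over all genes tested rose. The scores were -11.2, 7.72, 31.2 and 65.6 in Col3a1+/+ replicates 1 to 4. In Col3a1+/G182R they were -25.1, -33.0 and -35.2. The likeness of Eln and Fbn1 is thus not shown to be particular to elastic fibre genes. The 7 libraries share preparation, depth and tissue makeup as possible common sources, and r is given with no test.

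**Figure D4:**
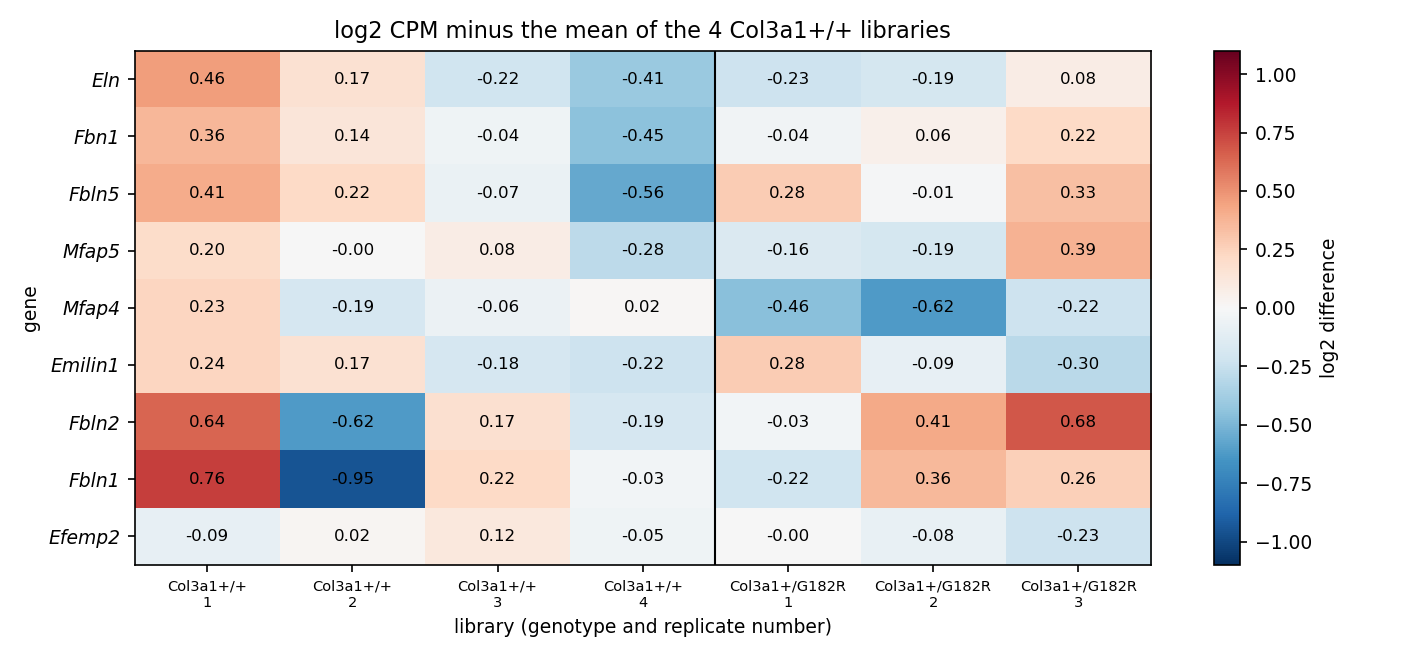
Cells give log2 CPM minus the mean of the 4 Col3a1+/+ libraries for 9 members (rows) in 7 libraries (columns, genotype and replicate number), on a colour scale from blue (lower) to red (higher). Among the Col3a1+/+ libraries Eln, Fbn1 and Fbln5 are highest in replicate 1 (0.46, 0.36 and 0.41) and lowest in replicate 4 (-0.41, -0.45 and -0.56), and Mfap4 is below 0 in all 3 Col3a1+/G182R libraries.

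Genes whose pattern was most like that of Eln were Sulf2 (r = 0.996), Setd2 (0.990), Mbd2 (0.987), Cyp1b1 (0.986), Zbtb18 (0.985) and Sh3d19 (0.983), in the order of r over 9389 protein-coding genes with a mean of at least 10 CPM. Col3a1 ranked 19 (0.969) and Lox, the main cross-linking enzyme, ranked 222 (0.915). Acta2 ranked 3288 (0.509) and Myh11 ranked 3247 (0.518). These contractile genes of smooth muscle were less like Eln than Fbn1, Fbln5 and Mfap5 were, and more like it than the other 5 members.

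Another 68 genes, in 5 lists drawn up around elastic fibre biology and in part by gene name, gave 63 tested genes. None passed edgeR's threshold, and at an unadjusted p under 0.05 there were 15 of 63, or 23.8%, with 9 lower and 6 higher in Col3a1+/G182R, beside the 20.4% of all genes tested. In CPM the genotypes did not overlap in 20 of 63, or 31.7%, beside 20.9% of all genes tested. DESeq2 called 4 of 63, or 6.35%, beside 4.5% of all genes tested. They were Loxl3, Fkbp10 and Ltbp2, which were lower, and Ctss, which was higher. The median log2 fold change over the 63 genes was 0.10.

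Among 15 genes of cross-linking and secretion, 7 were measured higher and 8 lower, with a median log2 fold change of -0.19. Loxl3, a lysyl oxidase family member, was at 118, 114, 145 and 131 CPM in Col3a1+/+ and 90.7, 79.3 and 87.1 CPM in Col3a1+/G182R. The genotypes did not overlap, and its log2 fold change was -0.57 (SE 0.13, edgeR adjusted p = 0.145, DESeq2 adjusted p = 0.00371). Fkbp10, a chaperone of the endoplasmic reticulum that binds tropoelastin and procollagens, was at 177 to 189 CPM in the Col3a1+/+ libraries and 122 to 146 CPM in the Col3a1+/G182R libraries, with a log2 fold change of -0.42 (edgeR adjusted p = 0.158, DESeq2 adjusted p = 0.011). Aldh18a1, an enzyme of proline synthesis, had a log2 fold change of -0.37, and Atp7a, the copper transporter that supplies lysyl oxidases, one of 0.96, and neither passed in edgeR or DESeq2.

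In the list of 21 microfibril partners, 10 were measured higher and 11 lower, with a median of -0.02. Mfap1a, Mfap1b, Mfap3 and Mfap3l stand in it by name only, and a place in the microfibril is not established for them here. All of these were measured higher (log2 fold changes of 0.379, 0.456, 0.301 and 0.661), so the number measured higher includes genes listed by name alone. Ltbp2, a latent TGF-β binding protein that associates with fibrillin, was at 153 to 193 CPM in the Col3a1+/+ libraries and 113 to 139 CPM in the Col3a1+/G182R libraries, with a log2 fold change of -0.46 (edgeR adjusted p = 0.168, DESeq2 adjusted p = 0.0456). Ltbp3 had a log2 fold change of -0.41 and Adamtsl5 one of -0.48, and neither passed in edgeR or DESeq2. Mfap1b had one of 0.46, and its reads can be shared with the near-identical Mfap1a, so that value is uncertain.

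Of 14 genes of elastin breakdown 10 were tested, of which 9 were measured higher and 1 lower, with a median of 0.15, and Mmp7 was at 0 in every library. Ctss, cathepsin S, an elastase made mostly by macrophages, was at 5.51, 4.51, 3.87 and 2.84 CPM in Col3a1+/+ and 5.88, 7.00 and 16.2 CPM in Col3a1+/G182R. The genotypes did not overlap, and a single mutant library lay far above the rest, with a log2 fold change of 1.20 (SE 0.37, edgeR adjusted p = 0.167, DESeq2 adjusted p = 0.043). The 10 macrophage markers summed to 66.2 to 115 TPM in the Col3a1+/+ libraries and to 86.4, 113 and 222 TPM in Col3a1+/G182R replicates 1 to 3. Only Col3a1+/G182R replicate 3 lay above the wild-type range. Of the 10 markers 9 were measured higher, with a median log2 fold change of 0.71 and 6 at an edgeR unadjusted p under 0.05. None was at 0, edgeR called none, and DESeq2 called Lyve1 (log2 fold change 1.24, adjusted p = 0.0347). The part of macrophage content in the value of Ctss was not tested. Ctsk (log2 fold change 0.48), Ctsl (0.34) and Timp1 (-0.27) did not pass in edgeR or DESeq2.

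Of the 10 receptors of elastin and microfibrils, 4 were measured higher and 6 lower, with a median of -0.05. Itgb3 and Ctsa, an integrin chain and the protective protein of the elastin receptor complex, had log2 fold changes of -0.38 and -0.28, with edgeR adjusted p of 0.205 and 0.232. Itga5 (-0.30) and Itgb1 (0.40), the chains of the main fibronectin receptor, did not pass in edgeR or DESeq2. Of the other fibulins and emilins, 7 of 8 were tested, 6 higher and 1 lower, with a median of 0.22. Mmrn1 (1.25), Hmcn1 (1.22), Emilin2 (0.59) and Mmrn2 (0.22) did not pass in edgeR or DESeq2, and Hmcn1 was measured at no more than 2.31 CPM in any library.

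**Figure D5:**
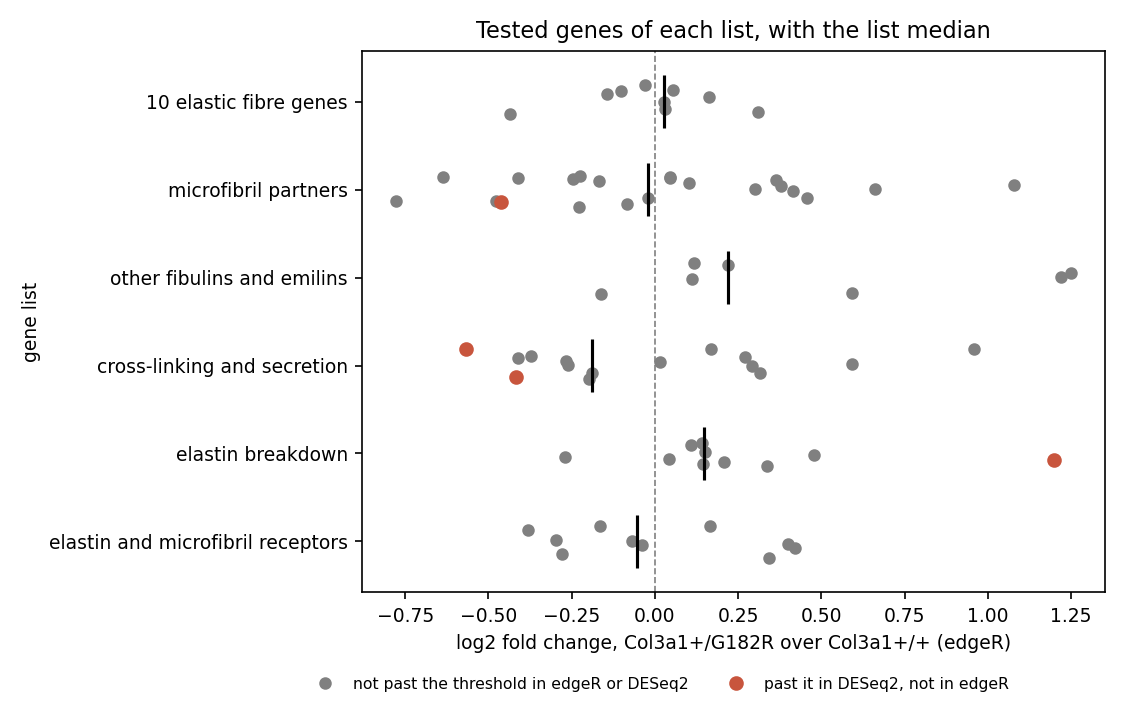
The horizontal axis gives the log2 fold change of Col3a1+/G182R (n = 3) over Col3a1+/+ (n = 4) for each tested gene as a point, in 6 gene lists on the vertical axis with their medians as black bars, and vertical scatter within a list has no meaning. The 9 tested elastic fibre genes lie between -0.43 and 0.31, and the 4 red points, Loxl3, Fkbp10, Ltbp2 and Ctss, passed the threshold in DESeq2 but not in edgeR.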

How the data were processed

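Poly(A) RNA was read from 7 aortas, 1 library per mouse, grouped by the genotype in the labels. Per the submitters' processing notes, the authors aligned reads with STAR 2.7.6a to GRCm38 and estimated with RSEM 1.3.1. The deposited expected counts share ambiguous reads among genes. The deposited TPM values are scaled by transcript length within each library, and the deposited gene lengths are weighted by transcript abundance. The annotation release is not given in the sources used here, and the paper's methods name STAR, featureCounts, DESeq2 and limma. Symbols, places and transcripts came from GENCODE M21, which held 55141 of 55487 identifiers.

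Expected counts were rounded. Genes were kept with filterByExpr (minimum count 10), scaled by TMM and compared with edgeR 4.0.16 (quasi-likelihood test, two-sided, genotype only) in R 4.3.3, with Benjamini-Hochberg adjustment over 15688 genes and a threshold of 0.05. CPM uses TMM library sizes. DESeq2 1.42.0 (default settings) and limma 3.58.1 (voom, library weights, and trend on log2(TPM + 0.5)) were alternatives, with RLE factors, 2 other filters, effective lengths as offset, a replicate block and each library left out. The scripts were tested on simulated data. Total counts set the precision of low genes, and n the precision of the rest. The labels do not say whether the mice were littermates.

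The members and the gene lists were chosen with earlier results of these data known. Genes named are the 10 members, up to 4 tested genes of each list with the smallest p, the 6 protein-coding genes with the highest r with Eln, Col3a1, and markers beside a result. The upstream windows and the length split were added after seeing the data. Fbn2 was left out of the upstream windows by choice, and the RefSeq table held none for Eln, Mfap4 and Mfap5. Overlapping antisense genes lie at the ends of Eln, Fbn1, Fbn2, Efemp2 and Mfap4, and whether counting used strand is not given in the sources used here.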

Additional observations from a re-analysis of the deposited data

How the results depend on the processing

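The count of members past the threshold was 0 in all 16 alternatives, and leaving out libraries gave 0 to 0. The other elastic fibre genes, with 0 past the threshold, gave 4 with DESeq2, 4 with library quality weights, and 0 to 2 when a library was left out, the 2 being without Col3a1+/+ replicate 1. Over all genes, the count of 6 became 706 with DESeq2, 546 with quality weights, 353 without the filter, 183 without Col3a1+/+ replicate 1, 46 with the replicate block, 32 without Col3a1+/+ replicate 4, 14 with effective lengths, 11 with voom, 9 on TPM, and 0 at 10 counts in every library and without any of the other 5 libraries.

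Mfap4, Efemp2 and Fbln2 kept their direction in all 16. When a library was left out, log2 fold changes ran from -0.276 to 0.0271 for Eln, -0.0864 to 0.185 for Fbn1, -0.203 to 0.327 for Fbln1, -0.00186 to 0.309 for Fbln5, -0.214 to 0.084 for Emilin1 and -0.192 to 0.13 for Mfap5. These turned sign in 1, 2, 4, 1, 4 and 2 of 7 such fits. Quality weights turned Mfap5 to -0.112. With the replicate block, Fbn1 was at -0.0716 and Mfap5 at -0.0826. Over all genes, same-numbered libraries did not deviate together (correlations of -0.05, 0.02 and 0.08 after genotype means were subtracted). With so few libraries these correlations cannot exclude a shared litter or day, which the labels do not give. Whether the block is better matched than the fit without it is therefore not known. The causes were not tested. With 4 and 3 mice, no member is shown to be unchanged.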
